A study of Mus musculus with 6 samples.

Results

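The BMP pathway was examined in neural stem/progenitor cells (NSC/NPCs) of the fetal mouse hypothalamus through 10 genes, namely the ligands Bmp7 and Bmp4, the type I receptors Bmpr1a and Bmpr1b, the transcriptional targets Id1, Id2, Id3 and Id4, and the inhibitory Smads Smad6 and Smad7. The 10 were taken by name from the 22048 genes of the deposited table, and all 10 were among the 13952 genes with enough reads to be tested. The question was whether these genes differed after prenatal high estradiol, and whether the Id and Smad6/7 targets followed Bmp7 from sample to sample. The RNA came from first-passage neurospheres, which are floating clusters of cells grown with EGF and bFGF, started from the hypothalami of male C57BL/6 fetuses at E14.5. In the high estradiol (HE) group the pregnant dams, 8 weeks old, were given estradiol valerate by gavage at 100 μg/kg/d from E5.5 to E11.5, and in the control (NC) group they were given corn oil, although the treatment label of the NC samples reads untreated. Each group had 3 samples and each sample held cells of 2 mice, so that no single fetus was measured, and nothing in the labels says whether the mice of 1 group came from different litters.

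BMPs are secreted ligands that bring together type I and type II receptors on the cell surface. The type I receptors phosphorylate Smad1, Smad5 and Smad9, which join Smad4, enter the nucleus and switch on Id genes and, as negative feedback, Smad6 and Smad7. Id proteins lack a DNA-binding region and hold back basic helix-loop-helix factors such as the proneural proteins, and in neural progenitors BMP signaling is known for holding back neurogenesis and favoring astrocyte fates.

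The samples held 16078675 to 19137059 gene-assigned reads, with the fewest in HE3. Sox2 was between 97.3 and 209 RPKM and Nes between 154 and 247 RPKM over the 6 samples, where RPKM is the read count scaled to the length of the gene and to the total of the sample. The 8 neural progenitor markers summed to 3060 to 3700 RPKM in NC and 2930 to 4670 RPKM in HE, and most of this sum was Vim and Fabp7. Sox2 and Prom1 were below NC in every HE sample, against 17.9% of all tested genes. Their log2 fold changes were -0.51 and -0.87 (unadjusted p = 0.0633 and 0.0161, adjusted p = 0.26 and 0.196 in limma). In the other progenitor markers the groups overlapped. The 10 hypothalamic markers summed to 15.3 to 16.6 RPKM in HE, inside the range of the NC samples, and Lhx2 was at 1.36 to 10.2 RPKM. Six3 was between 0.902 and 2.85 RPKM and Nkx2-1 between 1.03 and 3.34 RPKM, while Otp, Sim1 and Rax did not exceed 0.0185, 0.0338 and 0.251 RPKM. Of the 7 tested, Six6, Nkx2-2, Nkx2-4 and Foxb1 had higher levels in HE before adjustment in limma (p under 0.05) and 0 had lower levels. Over all tested genes 8.68% were higher and 11.8% lower at that level. The adjusted p-values of these 4 markers were 0.195 to 0.244, and Six6 rested on 1 to 13 reads per sample. The remaining tested markers, Lhx2, Nkx2-1 and Six3, had negative log2 fold changes of -1.12, -0.67 and -0.59, with unadjusted p-values above 0.05 in limma. HE3 stood apart from the other samples in several members, so values without it are given where they differ most.

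Of the 10 members, Bmp7 had the smallest p-value between the groups. It was at 4.26, 3.15 and 6.99 RPKM in NC1, NC2 and NC3 and at 8.94, 10.9 and 13.6 RPKM in HE1, HE2 and HE3. The groups did not overlap, and their means were 4.80 ± 1.98 and 11.2 ± 2.34 RPKM (SD, n = 3 samples each). The log2 fold change, on the log2(RPKM + 0.1) scale used for all tests, was 1.26 with a 95% interval of 0.56 to 1.96, and the adjusted p-value was 0.195 in limma (unadjusted p = 0.00367), so Bmp7 did not pass the threshold of 0.05. Over all 13952 genes tested, 0% passed an adjusted p-value of 0.05 with a log2 fold change of at least 1 either way, whereas limma gave 2858 genes an unadjusted p-value under 0.05. Run on the read counts, voom gave 2912 such genes and likewise called 0. These totals depended on single NC samples, since without NC3 101 of 13827 genes were called, none of them a member, and without NC1 or NC2 the genes with an unadjusted p-value under 0.05 numbered 1320 and 1622. An HE group wholly above NC was seen in 14.8% of tested genes and in 1 of the 10 members, and an HE group wholly below NC in 17.9% of tested genes and in 0 of the members. Without NC3, the highest NC sample, the log2 fold change of Bmp7 was 1.56 with an adjusted p-value of 0.0585, and without NC2 it was 1.00. Bmp7 rested on 242 to 879 reads per sample. In bulk RNA fewer cells of a type and less RNA per cell cannot be told apart, which holds for every difference given here. The gene, ENSMUSG00000008999, spans 172868012 to 172940321 on chromosome 2 (GRCm38.p6).

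**Figure D1:**
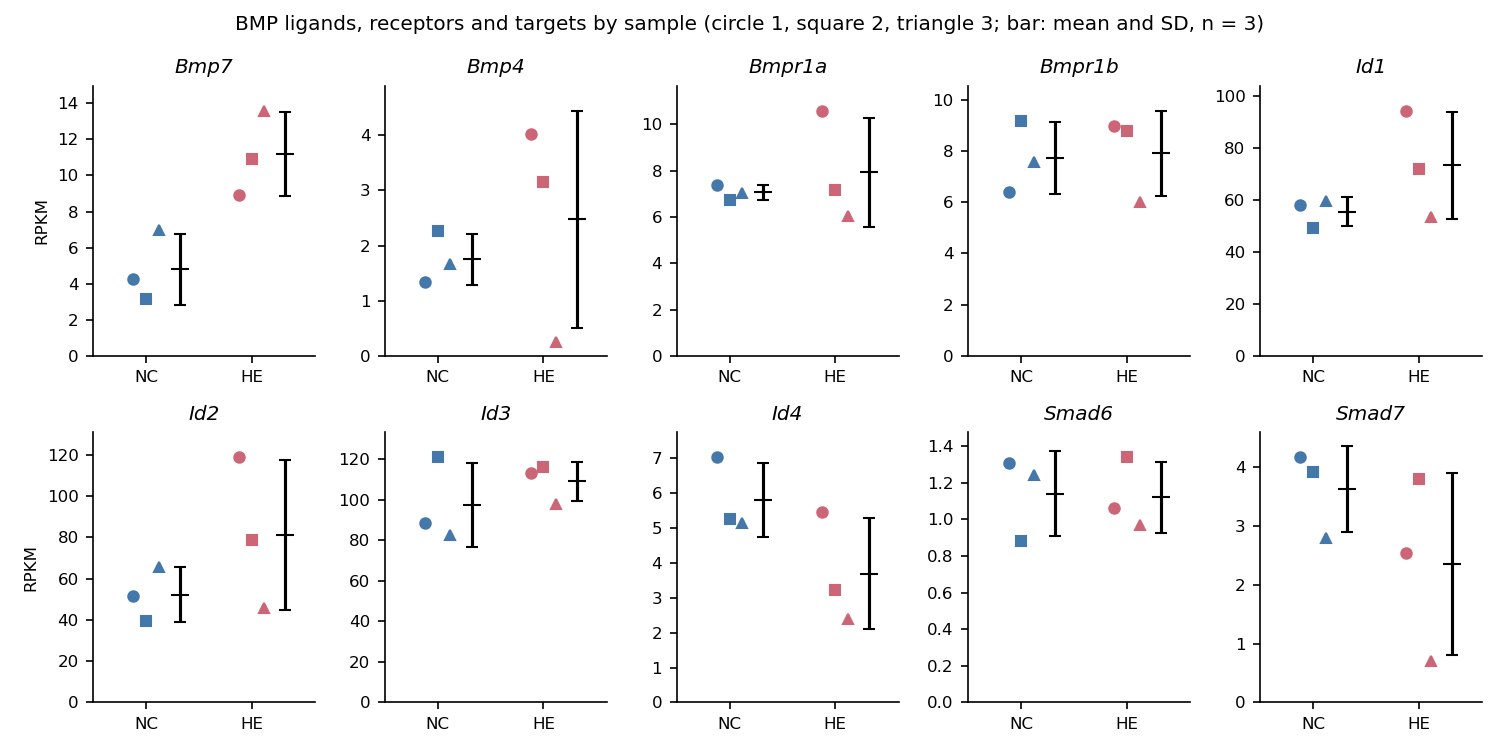
RPKM of each of the 10 genes in each sample, with NC in blue and HE in red, circles for replicate 1, squares for replicate 2 and triangles for replicate 3, and bars for the mean and SD of 3 samples. In Bmp7 the HE values, from 8.94 to 13.6 RPKM, all lie above the NC values, while in the other 9 genes the groups overlap.

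Bmp4, the other ligand and, like Bmp7, an activator of the Smad1/5/9 branch, showed a different pattern. Its NC values were 1.34, 2.26 and 1.66 RPKM and its HE values 4.02, 3.16 and 0.252 RPKM. HE1 and HE2 were thus above all NC samples, whereas HE3 was the lowest of the 6, with 9 reads against 56 to 160 in the other samples. With all samples the log2 fold change was -0.11 and its 95% interval ran from -2.16 to 1.93, so the direction of the difference was not resolved. Without HE3 it was 1.01 (unadjusted p = 0.00433, adjusted p = 0.15 in limma), and with a pseudocount of 1 it was 0.12. The ratio of Bmp7 to Bmp4 RPKM was 1.39 to 4.21 in NC, 2.22 in HE1, 3.46 in HE2 and 54.0 in HE3, so in the last sample nearly all of the RNA of these ligands was Bmp7. Bmp4 (ENSMUSG00000021835) lies on chromosome 14 from 46383525 to 46390669.

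The receptors differed little between the groups. Bmpr1a, which is broadly expressed in neural progenitors, was at 7.40, 6.74 and 7.04 RPKM in NC and at 10.6, 7.18 and 6.06 RPKM in HE. HE1 lay above every NC sample and HE3 below every NC sample, and the log2 fold change was 0.13 with a 95% interval of -0.36 to 0.62 (adjusted p = 0.719 in limma). Bmpr1b, the second BMP type I receptor, was at 6.38, 9.18 and 7.57 RPKM in NC and at 8.97, 8.77 and 6.00 RPKM in HE, with a log2 fold change of 0.03 and an interval of -0.46 to 0.52. The receptors were at similar levels per length, with a Bmpr1b to Bmpr1a ratio of 0.862 to 1.36 in NC and 0.849 to 1.22 in HE. The intervals leave room for a change of up to 0.62 on the log2 scale in Bmpr1a and 0.52 in Bmpr1b, and HE3 had the lowest value of both.

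Among the Id genes, Id1, Id2 and Id3 were abundant and Id4 was low. Id1 was at 58.3, 49.1 and 59.5 RPKM in NC and at 94.5, 72.1 and 53.5 RPKM in HE. HE1 and HE2 exceeded all NC samples and HE3 lay within the NC range. The log2 fold change was 0.37 with a 95% interval of -0.13 to 0.86 (adjusted p = 0.327 in limma). Id2 had the same arrangement, at 51.6, 39.5 and 65.9 RPKM in NC and 119, 78.9 and 45.9 RPKM in HE, a log2 fold change of 0.56 with an interval of -0.26 to 1.38 (adjusted p = 0.358). Without HE3 the log2 fold change was 0.57 for Id1 and 0.92 for Id2. Unadjusted p-values were then 0.0069 and 0.00921, and adjusted p-values 0.155 and 0.164, in limma. Without HE1, the highest sample in both genes, the log2 fold change was 0.16 for Id1 and 0.23 for Id2. Unadjusted p-values were then 0.387 and 0.464 in limma, so the size of the difference depended on single HE samples. Id3, the most abundant in 5 of the 6 samples, was at 88.4, 121 and 82.8 RPKM in NC and 113, 116 and 97.9 RPKM in HE. The highest single value of Id3 was in NC2, and the log2 fold change was 0.17 with an interval of -0.22 to 0.56.

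Id4, which in the embryonic brain is known as a regulator of progenitor proliferation and differentiation timing, went the other way. It was at 7.03, 5.26 and 5.15 RPKM in NC and at 5.45, 3.22 and 2.40 RPKM in HE. HE2 and HE3 lay below every NC sample, while HE1 was inside the NC range. The log2 fold change was -0.71 with a 95% interval of -1.41 to -0.01 (unadjusted p = 0.0486, adjusted p = 0.242 in limma). Without NC1, NC2 or NC3 in turn, or without HE2 or HE3, the unadjusted p-value of Id4 was above 0.05, and the log2 fold change ranged from -1.02 to -0.45 over the 6 fits that each left out 1 sample, with -0.45 the value without HE3. Bmp7 and Id4 were the only members with an unadjusted p-value under 0.05, 1 of 10 higher and 1 of 10 lower, against 8.68% of tested genes higher and 11.8% lower. These shares of the members were close to those of all genes.

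Within each sample the Id genes were also set against one another. Summed over Id1 to Id4 the level was 205, 215 and 213 RPKM in NC and 331, 270 and 200 RPKM in HE. Id4 made up 2.41% to 3.42% of this sum in the NC samples and 1.19% to 1.65% in the HE samples, so the groups did not overlap in this share, which was computed after the values had been seen and carries no test. Id3 made up 38.8% to 56.4% of the sum in NC and 34.0% to 49.0% in HE.

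**Figure D2:**
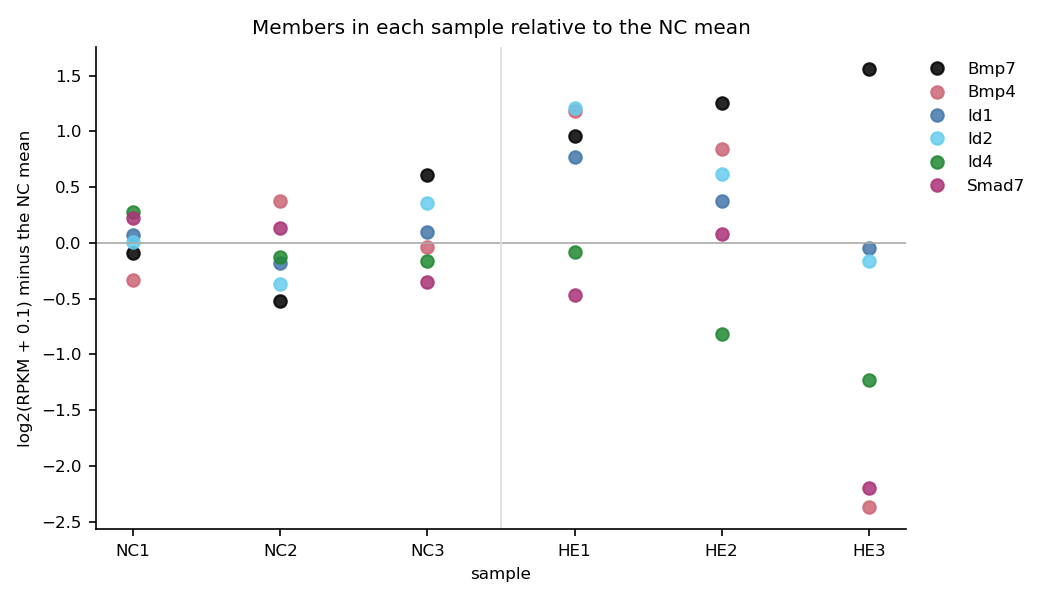
Value of log2(RPKM + 0.1) in each sample minus the NC mean for Bmp7, Bmp4, Id1, Id2, Id4 and Smad7, with the samples on the horizontal axis. In HE3 Bmp7 is 1.56 above the NC mean, whereas Bmp4 is at -2.37, Smad7 at -2.20 and Id4 at -1.23.

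The inhibitory Smads, which block receptors and receptor-activated Smads, were no higher in HE. Smad6, the one more selective for BMP signaling, was at 1.31, 0.880 and 1.24 RPKM in NC and at 1.06, 1.34 and 0.970 RPKM in HE. HE1 and HE3 lay inside the NC range and HE2 just above it, and the log2 fold change was -0.01 with a 95% interval of -0.54 to 0.51 (adjusted p = 0.969 in limma). Smad6 rested on 50 to 82 reads per sample. Smad7, which also restrains the TGF-β branch, was at 4.17, 3.92 and 2.79 RPKM in NC and at 2.54, 3.79 and 0.702 RPKM in HE. HE3, with 51 reads, stood far below the rest, HE1 was slightly below the NC range and HE2 lay inside it. The log2 fold change was -0.86 with an interval of -2.15 to 0.42 (adjusted p = 0.364), and -0.20 without HE3. The ratio of Smad7 to Smad6 RPKM was 2.26 to 4.45 in NC, 2.39 in HE1, 2.83 in HE2 and 0.723 in HE3.

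**Figure D3:**
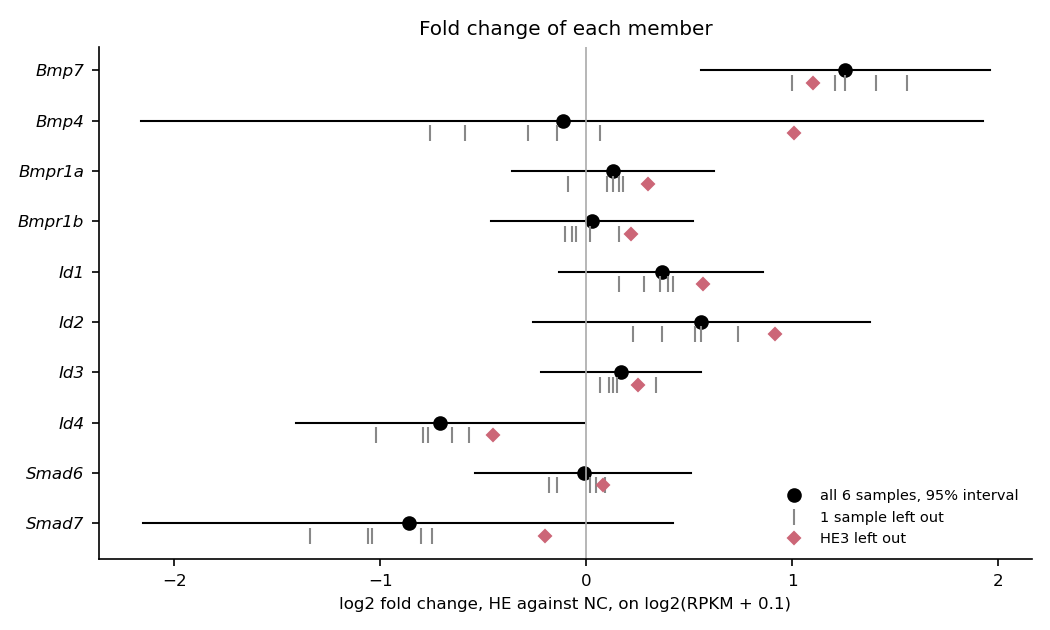
Log2 fold change of each member between HE and NC, with black points and lines for the estimate and 95% interval from all 6 samples, grey ticks for fits without 1 sample and red diamonds for the fit without HE3. Only the intervals of Bmp7 and Id4 exclude 0, and leaving out HE3 moves Bmp4 from -0.11 to 1.01 and Smad7 from -0.86 to -0.20.

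To relate these targets to promoter sequence, the window from 250 bases before to 50 bases after the RefSeq gene start (GRCm38.p6) was read for 7 of the 10 members. No window was read for Bmp7, Id1 and Smad7, so the targets Id1 and Smad7 were not covered. Each window was searched for GGCGCC, the GC-rich core found in BMP-responsive elements, and for the Smad-binding palindrome GTCTAGAC. Both motifs read the same on either strand. GGCGCC occurred in 11.9% of the 32851 promoter windows searched and GTCTAGAC in 0.213%. The Id2 window (chr12:25096043-25096342, minus strand) and the Id4 window (chr13:48260866-48261165, plus strand) each held 1 copy of GGCGCC, as did that of Bmpr1a, and the Smad6 window (chr9:64022010-64022309, minus strand) held 1 copy of GTCTAGAC, which begins at base -4 from the start. The windows of Id3, Bmp4 and Bmpr1b held neither. The 3 target windows with a match are shown 5′ to 3′ along the gene, with the matched letters in capitals, because Id2, Id4 and Smad6 are targets whose relation to Bmp7, given next, ranged from positive to negative. A match marks these letters only and is not evidence of binding.
Id2: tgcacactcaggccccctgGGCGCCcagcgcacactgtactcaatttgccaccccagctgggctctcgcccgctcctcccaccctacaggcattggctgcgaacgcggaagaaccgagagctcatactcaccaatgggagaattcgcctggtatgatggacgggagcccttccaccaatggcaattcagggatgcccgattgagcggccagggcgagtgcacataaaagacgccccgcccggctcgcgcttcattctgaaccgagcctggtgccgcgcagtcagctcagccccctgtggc
Id4: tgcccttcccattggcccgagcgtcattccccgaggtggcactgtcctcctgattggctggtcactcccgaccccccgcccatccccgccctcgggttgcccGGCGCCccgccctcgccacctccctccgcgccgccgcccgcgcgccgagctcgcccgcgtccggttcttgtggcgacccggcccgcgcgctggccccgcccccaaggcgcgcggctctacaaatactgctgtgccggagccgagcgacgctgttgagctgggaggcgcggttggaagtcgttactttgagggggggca
Smad6: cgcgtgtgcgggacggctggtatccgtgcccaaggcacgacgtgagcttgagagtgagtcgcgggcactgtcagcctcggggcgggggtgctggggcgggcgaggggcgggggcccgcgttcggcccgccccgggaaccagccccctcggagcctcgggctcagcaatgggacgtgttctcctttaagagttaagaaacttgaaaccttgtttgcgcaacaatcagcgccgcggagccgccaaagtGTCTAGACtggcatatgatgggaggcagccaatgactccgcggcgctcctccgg

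Whether the targets followed Bmp7 was tested over the 6 samples on the log2(RPKM + 0.1) scale. None of the 6 relations passed the correction. Id1 had a Pearson r of 0.43 with Bmp7 and a Spearman rho of 0.37, and the exact permutation p-values over 720 orders were 0.397 and 0.497 (two-sided, adjusted 0.596 and 0.746 over the 6 relations). Id2 was much the same, with r = 0.45 and rho = 0.37 (exact permutation p = 0.368 and 0.497, adjusted 0.596 and 0.746). Both relations turned when NC1 and NC2, the samples farthest from the median of Bmp7, were left out, to r = -0.27 for Id1 and -0.46 for Id2, so the positive values rested on those samples. HE3 mattered in the other direction. It combined the highest Bmp7 with Id1 and Id2 levels inside the NC range, and without it r was 0.80 for Id1 and 0.87 for Id2 over 5 samples (adjusted exact permutation p = 0.3 and 0.3). With 5 samples there are fewer orders, and a single relation could hardly pass the correction whatever its r.

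Id3 and Smad6 showed no relation in either direction with all samples, at r = -0.03 and rho = -0.09 for Id3 (exact permutation p = 0.956 and 0.919, adjusted 0.956 and 0.919) and r = 0.17 and rho = 0.20 for Smad6 (exact permutation p = 0.725 and 0.714, adjusted 0.87 and 0.857). Left without NC1 and NC2, they came to 0.47 and -0.44. Id4 and Smad7 had negative values. For Id4 r was -0.78 and rho -0.71 (exact permutation p = 0.0806 and 0.136, adjusted 0.325 and 0.408), and for Smad7 r was -0.68 and rho -0.77 (exact permutation p = 0.108 and 0.103, adjusted 0.325 and 0.408). These negative values did not rest on the 2 farthest samples, since r was -0.91 for Id4 and -0.64 for Smad7 without them. Without HE3 r was -0.65 for Id4 and -0.52 for Smad7, the weakest value of each with 1 sample left out. Neither relation passed the correction.

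Because Bmp7 separates HE from NC, a relation over all samples mixes the group difference with the spread inside the groups, and 3 samples a group are too few to test the latter. As a description, r of the deviations from each group's own mean was -0.18 for Id1, -0.86 for Id3, -0.49 for Id4, 0.40 for Smad6 and -0.52 for Smad7, and for Id2 it was 0.00 after rounding. Inside NC, the sample with the most Bmp7, NC3, had the highest Id1 and Id2 and the lowest Id3, Id4 and Smad7, with Smad6 in between. Inside HE, HE3 with the most Bmp7 had the lowest Id1, Id2, Id3, Id4, Smad6 and Smad7. As background, 25.4% of the tested genes had an r of at least 0.8 in either direction with Bmp7 over these samples, and 28.4% had an r at least as high as that of Id1. In a second family of 3 relations, Bmp7 had an r of -0.29 with Bmp4, 0.03 with Bmpr1a and -0.23 with Bmpr1b, and rho of -0.09, -0.14 and -0.49 (exact permutation p of r 0.604, 0.975 and 0.647, and of rho 0.919, 0.803 and 0.356, all adjusted values at or above 0.919). Without NC1 and NC2 these r came to -0.57, -0.42 and -0.48, and without HE3 they were positive, at 0.61, 0.45 and 0.25 (adjusted exact permutation p = 0.708 for each).

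**Figure D4:**
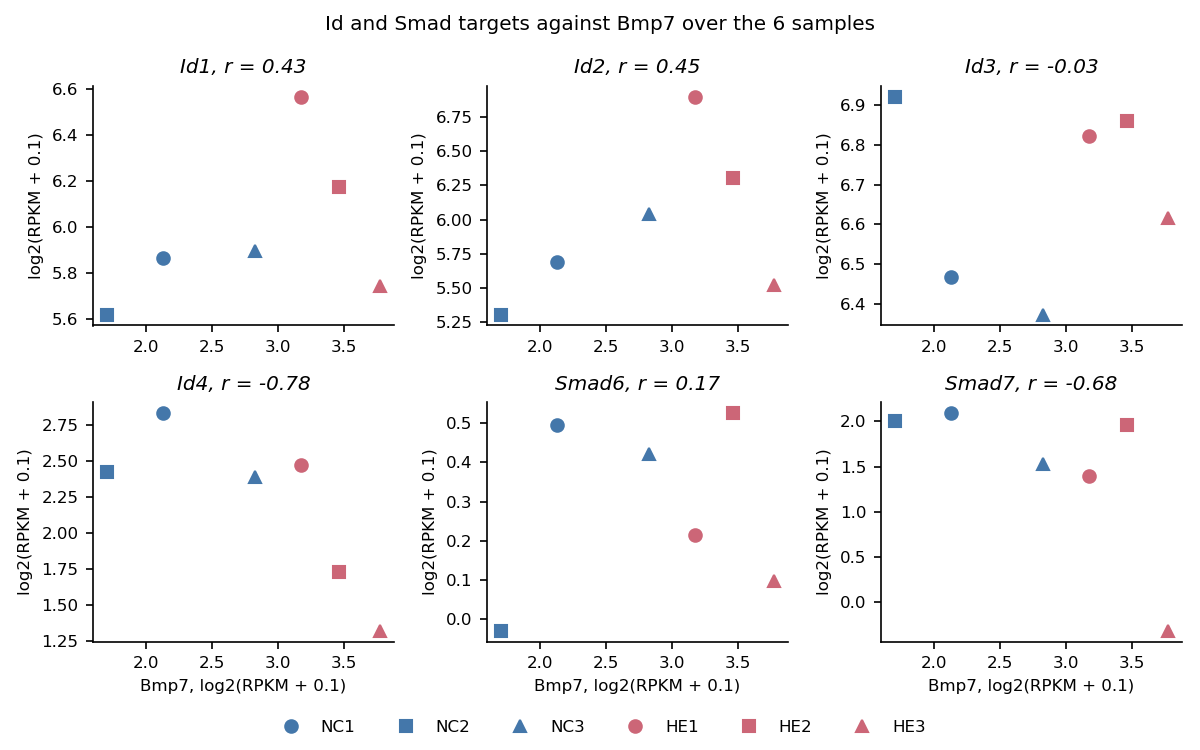
Each target on the vertical axis against Bmp7 on the horizontal axis, both as log2(RPKM + 0.1), with 1 point per sample, NC in blue and HE in red. Id1 and Id2 are highest in HE1 and low again in HE3, where Bmp7 is highest, and Id4 and Smad7 are lowest in HE3.

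The genes whose pattern over the 6 samples was most like that of Bmp7, among 11523 tested genes with a mean of at least 1 RPKM, were Tubb4b (r = 0.9991), a β-tubulin, Ccnb2 (0.9977) and Ccna2 (0.9970), which are cyclins, Slc38a3 (0.9960), an amino acid transporter, and Plk2 (0.9942), a kinase of the Polo-like family. They are given as a description, without a test, since all were picked for this likeness. Slc38a3 was at 6.65, 4.78 and 9.29 RPKM in NC and 12.2, 14.2 and 15.9 RPKM in HE, a log2 fold change of 1.06. The other 4 differed less, with log2 fold changes of 0.35 to 0.68.

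The rest of the pathway was read from lists of ligands, receptors, extracellular regulators, Smads with other intracellular factors, further targets, and partners of the Id proteins. Of 81 genes that are not members, 59 were tested. In limma 0 had an adjusted p-value under 0.05, 3 were higher and 8 lower at an unadjusted p-value under 0.05, and 48 were not past it. As shares these were near the 8.68% higher and 11.8% lower of all tested genes, and the same background applies to each list that follows. Their median log2 fold change was -0.19 against -0.06 over all tested genes. In total 43 of the 59 had a negative log2 fold change, against 7843 of the 13952.

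**Figure D5:**
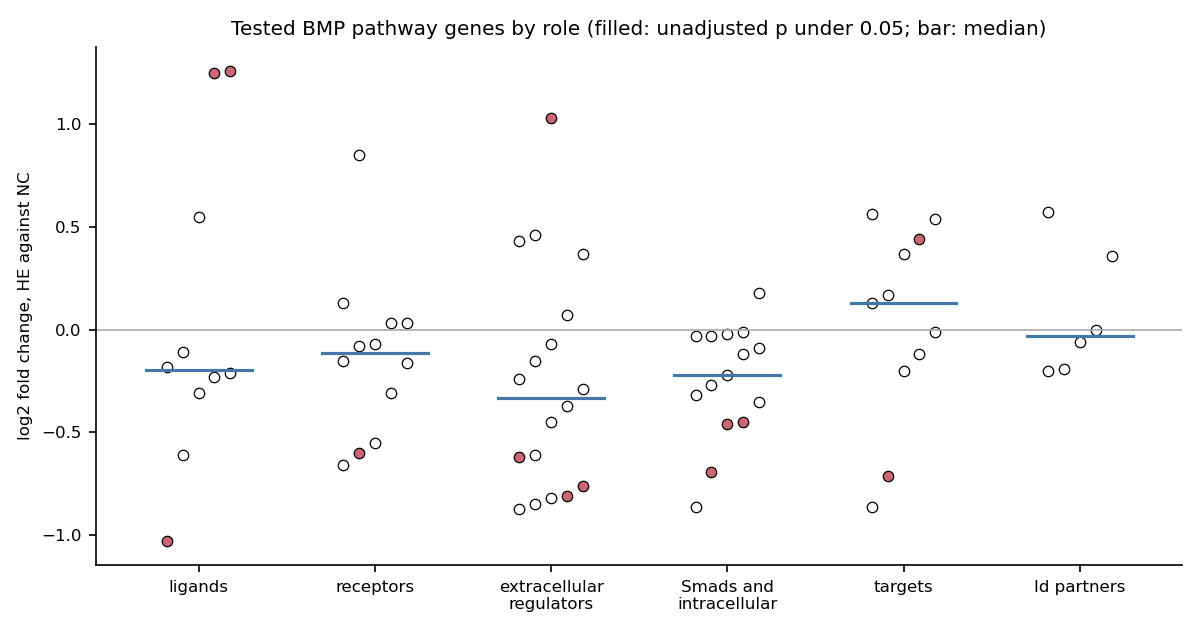
Log2 fold change between HE and NC of each tested pathway gene, members included, by role on the horizontal axis, with filled points for an unadjusted p-value under 0.05 and blue bars for the median of each list. The extracellular regulators have a median of -0.33 and the Smads and intracellular factors a median of -0.22, and Bmp7, at 1.26, is the highest point among the ligands.

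Of 18 further ligands 8 were tested, 1 higher and 1 lower at an unadjusted p-value under 0.05. Bmp5, a ligand of the same subgroup as Bmp7, was low, at 0.119, 0.0389 and 0.157 RPKM in NC and 0.819, 0.326 and 0.170 RPKM in HE. Its lowest HE value barely cleared the highest NC value, and limma gave a log2 fold change of 1.25 ± 0.48 (SE, adjusted p = 0.221). Bmp3, which can oppose other BMPs, was at 0.202, 0.466 and 0.114 RPKM in NC and 0.0377, 0.085 and 0.0673 RPKM in HE. All HE values were below NC, with a log2 fold change of -1.03 ± 0.38 (SE, adjusted p = 0.217 in limma). Gdf15, a divergent member of the family, had a log2 fold change of -0.31.

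Extracellular regulators held the smallest p-values of the pathway. Bmp1, a metalloproteinase that despite its name is not a BMP ligand and releases BMPs by cleaving chordin, was at 115, 124 and 114 RPKM in NC and 81.8, 75.9 and 73.0 RPKM in HE. The groups were well apart, with a log2 fold change of -0.62 ± 0.10 (SE, unadjusted p = 0.000512, adjusted p = 0.195 in limma). Furin, a convertase that cleaves BMP precursors, was at 3.93, 3.93 and 3.94 RPKM in NC and 2.20, 2.43 and 1.98 RPKM in HE, a log2 fold change of -0.81 ± 0.15 (SE, adjusted p = 0.195 in limma). Nbl1, a secreted BMP antagonist named after its values were seen, was also below NC in every HE sample, with a log2 fold change of -0.76. Vwc2, another secreted BMP antagonist, was the 1 gene of this list higher at an unadjusted p-value under 0.05, at 0.494, 0.822 and 0.909 RPKM in NC and 1.14, 1.41 and 2.40 RPKM in HE. Pcsk6, a convertase related to Furin, had a log2 fold change of 0.46 and did not reach it. In this list 18 of 23 genes were tested, 3 were lower and 1 higher at that level, and 4 lay wholly below NC against 2 wholly above, where 17.9% and 14.8% of all tested genes did so.

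Of the 10 other receptors and coreceptors, 1 was lower and 0 were higher at an unadjusted p-value under 0.05. Acvr2b, a type II receptor shared by activins and BMPs, was at 5.53, 4.68 and 5.54 RPKM in NC and 4.01, 4.04 and 2.45 RPKM in HE, a log2 fold change of -0.60 (adjusted p = 0.215 in limma). Rgma, a BMP coreceptor, had a log2 fold change of -0.55, and Acvrl1, a type I receptor best known in endothelium, of 0.85, both with unadjusted p-values above 0.05.

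Among Smads and intracellular factors 13 genes besides Smad6 and Smad7 were tested, 3 lower and 0 higher at an unadjusted p-value under 0.05. Zfp423, a zinc-finger partner of the BMP-activated Smads, was at 6.37, 6.47 and 6.09 RPKM in NC and 4.34, 5.03 and 2.66 RPKM in HE, a log2 fold change of -0.69 (adjusted p = 0.204 in limma). Smurf1, a ubiquitin ligase that targets Smads and receptors, had a log2 fold change of -0.46. Smad1, named after its values were seen, was at 16.5, 18.1 and 17.3 RPKM in NC and 14.5, 15.0 and 9.36 RPKM in HE, a log2 fold change of -0.45 (unadjusted p = 0.0495, adjusted p = 0.244). Smad5, the other abundant BMP-activated Smad, was the only 1 of the 13 with a positive log2 fold change, of 0.18 (adjusted p = 0.434).

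Of 9 further targets 5 were tested. Bambi, a decoy receptor induced by BMPs as feedback, was at 2.55, 2.32 and 2.42 RPKM in NC and 3.41, 3.31 and 3.25 RPKM in HE. Its groups were apart with little spread, and the log2 fold change was 0.44 ± 0.14 (SE, unadjusted p = 0.0154, adjusted p = 0.195 in limma). Of the partners of Id proteins 6 of 9 were tested, and at the unadjusted level 0 passed in either direction. Olig1 and Olig2, basic helix-loop-helix factors of the oligodendrocyte lineage, had log2 fold changes of 0.57 and 0.36, and the E proteins Tcf4 and Tcf3 of -0.19 and -0.20.

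BMP ligands are also made by cells outside the neural lineage, so markers of such cells are given beside the members. The summed level of 11 mesenchymal and meningeal markers was 88.6, 32.9 and 50.9 RPKM in NC and 172, 130 and 77.8 RPKM in HE. HE1 and HE2, in which Bmp4, Id1 and Id2 were above NC, had the highest sums, with Col3a1 alone giving 92.7 RPKM of the sum in HE1. In 5 of the 10 tested markers every HE sample lay above NC, against 14.8% of all tested genes, whereas Prrx1 had a log2 fold change of -0.50 and Foxc1 of 0.00. None of the 11 was at 0 in all samples. The 7 choroid plexus markers summed to 59.7 to 212 RPKM in NC and to 428, 73.9 and 18.7 RPKM in HE, of which Ttr gave 393 RPKM in HE1. Endothelial markers were low, with sums of 2.47 to 3.43 RPKM in NC and 4.15 to 5.25 RPKM in HE. Of the 3 tested, only Cdh5 lay above NC in every HE sample. The log2 fold changes were 1.69 for Cdh5, 0.55 for Kdr and -0.20 for Flt1. Microglial markers summed to 0.655 to 1.13 RPKM in NC and 1.84 to 8.26 RPKM in HE. C1qa, C1qb and Tyrobp, with 0 to 2 reads in each NC sample, lay above NC in every HE sample. In Csf1r, Cx3cr1, Aif1 and P2ry12 the groups overlapped, with HE to NC ratios of means of 1.30, 1.51, 0.889 and 0.983. Neuronal markers summed to 47.3 to 78.5 RPKM in NC and 53.9 to 69.7 RPKM in HE. Of the 9 tested, Map2, Snap25 and Elavl4 lay above NC in every HE sample, with log2 fold changes of 0.49, 0.40 and 0.74. In the others the groups overlapped and the log2 fold changes were negative, down to -0.72 in Elavl3. The 8 astrocyte markers summed to 1560 to 1950 RPKM in NC and 1200 to 1800 RPKM in HE. S100b and Sparcl1 lay above NC in every HE sample, with log2 fold changes of 0.92 and 0.70. Aldh1l1 lay below NC in every HE sample, at -0.27, and in the other astrocyte markers the groups overlapped. The 7 oligodendrocyte lineage markers summed to 57.0 to 74.7 RPKM in NC and 20.1 to 69.4 RPKM in HE, lowest in HE3. The part of these cells in the levels of the members was not tested.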

How the data were processed

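RNA-Seq of 3 HE and 3 NC samples was analysed. Reads were filtered by the authors, mapped to mm10 with TopHat2 and assigned to genes. The counting tool, annotation release and use of strand in counting are not given in the sources used here. The deposited table gives raw read counts beside RPKM, which the authors derived from count, gene length and sample total (recomputed within 4.99e-07). Larger counts carry commas. The counts were used for the read filters and for voom, but negative binomial models were not run. With another method, the paper reported differentially expressed mRNAs at the same cutoffs of log2 fold change and FDR. The lack of called genes with all samples therefore holds for limma and voom as run here. Whether it depends on the model was not tested.

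The main test was limma 3.58.1 (R 4.3.3) on log2(RPKM + 0.1), with the prior variance allowed to follow mean level, group as the only term, Benjamini-Hochberg over 13952 genes with at least 10 reads in a library of median size in 3 samples and 15 reads in all. It was also run on simulated counts with known changes, the same spread setting for every gene and no outlying sample. That run does not cover a sample such as HE3. Fold changes on this scale understate those of low genes. Symbols matched 21781 identifiers. At this depth 1 read per kilobase is 0.0523 to 0.0622 RPKM. This is a unit of resolution and not the counting error of a gene. Since separate litters are not stated, p-values measure the spread between these samples. Relations used exact two-sided permutation over the 720 orders of the 6 samples, or over all orders of the samples kept where any were left out.

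The members and gene lists were chosen with earlier results of these data known. Besides the members, the text names the 2 genes with the smallest p-value in each direction of each list and the 5 most like Bmp7. Alternatives were a pseudocount of 1, median-of-ratios scaling, other filters, voom, a replicate block, and leaving out each sample.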

Additional observations from a re-analysis of the deposited data

How the results depend on the processing

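No member passed the threshold with all samples or under any of the 12 alternatives. The number of members with an unadjusted p-value under 0.05, 2 with all samples, was 1 with voom on the read counts and 1 to 4 with 1 sample left out (1 without NC1 or without NC3, 4 without HE3). Without HE3 the 4 members, Bmp7, Bmp4, Id1 and Id2, were all higher in HE. In that fit 1289 of the 13903 genes tested were higher at that level and 1473 lower. For the pathway genes the number was 13, and 5 to 17 with 1 sample left out (5 without NC1, where the count over all genes went from 2858 to 1320). It was 17 without HE3, where the count over all genes was 2762. With the replicate block the number was 2 for the members and 19 for the pathway genes, against 3184 over all genes. No call changed, but the block lowered the adjusted p-value in limma of every member except Smad6. That of Bmp7 went from 0.195 to 0.099, that of Id4 from 0.242 to 0.14 and that of Smad7 from 0.364 to 0.22. Same-numbered samples correlated at 0.156, 0.0869 and 0.0603 in their deviations from the group means, each the best match of that sample, but the labels do not say that a number marks a shared litter or day. Of 119 refitted log2 fold changes of members 107 kept their sign. The others lay in Bmp4 (0.12 with a pseudocount of 1, and -0.76 to 1.01 with 1 sample left out), Bmpr1a (-0.09 to 0.30), Bmpr1b (-0.10 to 0.22) and Smad6 (0.04 with median-of-ratios scaling, and -0.18 to 0.09). At 10 reads in every sample Bmp4 could not be tested, as HE3 had 9. Of 99 values for relations with Bmp7 80 kept their sign and the smallest adjusted exact permutation p-value was 0.1. With samples left out there were fewer than 720 orders. A single relation among the 6 targets could then hardly pass the correction whatever its r, so those p-values do not decide it. Without the 2 samples farthest from the median of Bmp7, r was -0.27 for Id1, -0.46 for Id2, 0.47 for Id3, -0.44 for Smad6 and -0.42 for Bmpr1a. Without a log scale it was 0.01 for Id3 and -0.05 for Bmpr1a, and with median-of-ratios scaling 0.19 for Id3. Deviations from the group means gave -0.18 for Id1 and -0.40 for Bmpr1a. With 1 sample left out r ranged from -0.29 to 0.58 for Id3, -0.59 to 0.54 for Smad6, -0.49 to 0.61 for Bmp4, -0.44 to 0.45 for Bmpr1a and -0.58 to 0.25 for Bmpr1b, the highest of these last 3 being without HE3. The cause of these changes was not tested. Low read counts limit the precision of Bmp4 in HE3, with 9 reads, and of Smad6, with 50 to 82 reads per sample.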

Other observations

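After the values had been seen, the targets were also set against Bmp4 in place of Bmp7. The reason was that Bmp4, Id1 and Id2 shared the order of the HE samples. That order, HE1 above HE2 above HE3, was also that of Id4, Bmpr1a and Bmpr1b, so it was not particular to these genes. Bmp4 was thus picked for this likeness, which the p-values below do not take into account. Over the 6 samples the Pearson r with Bmp4 was 0.61 for Id1, 0.62 for Id2, 0.45 for Id3, 0.53 for Id4, 0.26 for Smad6 and 0.80 for Smad7, and rho was 0.66, 0.66, 0.54, 0.26, 0.14 and 0.03. The exact permutation p-values of r were 0.196, 0.192, 0.403, 0.296, 0.669 and 0.135 (two-sided, adjusted 0.392 to 0.669 over the 6 relations), and those of rho were 0.175, 0.175, 0.297, 0.658, 0.803 and 1.0 (adjusted 0.525 to 1.0), so none passed the correction. As background, 29.0% of tested genes had an r with Bmp4 at least as high as that of Id1. The share was 28.4% for Id2 and 12.6% for Smad7. Without HE1 and HE3, the samples farthest from the median of Bmp4, r was 0.42 for Id1 and 0.35 for Id2. It was 0.11 for Smad7 and -0.93 for Id4, so the values for Smad7 and Id4 rested on those samples. The summed RPKM of mesenchymal and meningeal markers, of which Col3a1 gave the most, was highest in HE1 and HE2, the samples highest in Bmp4, although Prrx1 was highest in NC1. The part of these markers in these values was not tested.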
